A study of Mus musculus with 17 samples.

Results

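The transcripts of 10 chemokine genes were followed in cultured mouse pancreatic stellate cells: Cxcl1, Cxcl2, Cxcl5, Cxcl12, Cxcl16, Cx3cl1, Ccl2, Ccl7, Ccl20 and Ccl5. They were taken by name, through their Ensembl gene IDs, from 35896 listed IDs, and all 10 were among the 13923 genes that passed the filter on low counts. The 10 were chosen with earlier results of these data known, so the counts called among them are not an independent test. By structure 5 are CXC chemokines, 4 are CC chemokines and Cx3cl1 is the CX3C chemokine. The study sequenced RNA from 17 libraries of 2 wild-type stellate cell lines of strain C57BL/6J, PSC4 at passages 23 to 25 and PSC5 at passages 27 and 28, all held in Matrigel for 4 days. Control medium had 5 libraries, TGF-beta at 20 ng/mL had 4, medium conditioned by pancreatic tumour organoids (CM) had 4, and CM with neratinib at 300 nM, a kinase inhibitor of the ERBB receptors, had 4. The questions these groups address are how stellate cells respond to TGF-beta and to tumour medium, and what ERBB inhibition changes in the latter. No library had neratinib without CM, and the labels do not say how each line was derived. Within a group, the replicates of a line had different passage numbers, so they were cultures of the same line at different passages. The p-values therefore measure the spread between these libraries.

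Chemokines are small secreted or membrane-held proteins that bind G protein-coupled receptors on leukocytes and set the direction in which those cells move. Fibroblasts and stellate cells of the pancreas are known sources of them, and the mix they release bears on which leukocytes enter a tumour. Many chemokine genes are textbook targets of the transcription factor NF-kB, which is held in the cytoplasm by inhibitor proteins until receptors such as those for IL-1, TNF or microbial products release it.

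In the GENCODE M21 annotation of GRCm38, Cxcl5 (chromosome 5, 90759360 to 90761624), Cxcl1 (chromosome 5, 90891241 to 90893115) and Cxcl2 (chromosome 5, 90903871 to 90905938) lay in 1 cluster, with 10.76 kb between Cxcl1 and Cxcl2. Ccl2 (chromosome 11, 82035571 to 82037453) and Ccl7 (chromosome 11, 82045712 to 82047525) were neighbours 8.258 kb apart, and Ccl5 lay further along the same chromosome (83525778 to 83530518). The other members were Cxcl16 (chromosome 11, 70453983 to 70459984), Cxcl12 (chromosome 6, 117168535 to 117181367), Cx3cl1 (chromosome 8, 94772009 to 94782427) and Ccl20 (chromosome 1, 83116766 to 83119167). Each value covers the whole gene, exons of all its transcripts together. Ccl2 overlaps the antisense gene Gm17268 and Cxcl16 overlaps Zmynd15 on the opposite strand, and since no source used here says that counting used strand, reads of those pairs cannot be told apart.

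The RefSeq promoter table (GRCm38.p6) matched 5 of the 10 members, and the 250 bases before the RefSeq start were searched on both strands for a kB-type motif, GGGNNTTTCC, the kind of sequence NF-kB dimers bind. Windows of the same length held it at 464 of 32817 starts (1.41%). It was found in 3 of the 5: Cxcl1 held matches at 89 to 80 bases (minus strand) and 71 to 62 bases before the start, Cxcl2 at 97 to 88 and 78 to 69 bases, and Ccl20 at 80 to 71 bases (minus strand), none overlapping another. No match lay in the windows of Cxcl12 and Cx3cl1, which says only that these letters are absent there. A match is a run of letters and no evidence of binding. The 3 windows with matches are shown, and that of Cxcl12 as a window without one. All 4 genes, Cxcl12 among them, fell with TGF-beta, and a link between the motif and the response was not tested. Capitals mark the matches, and all 4 windows are on the plus strand (chr5:90890995-90891244, chr5:90903649-90903898, chr1:83116516-83116765 and chr6:117168285-117168534).
Cxcl1: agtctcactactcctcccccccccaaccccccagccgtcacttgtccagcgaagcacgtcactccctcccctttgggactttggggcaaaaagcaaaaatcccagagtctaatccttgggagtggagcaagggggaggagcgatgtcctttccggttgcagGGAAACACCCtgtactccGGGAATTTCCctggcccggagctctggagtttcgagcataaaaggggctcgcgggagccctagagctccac
Cxcl2: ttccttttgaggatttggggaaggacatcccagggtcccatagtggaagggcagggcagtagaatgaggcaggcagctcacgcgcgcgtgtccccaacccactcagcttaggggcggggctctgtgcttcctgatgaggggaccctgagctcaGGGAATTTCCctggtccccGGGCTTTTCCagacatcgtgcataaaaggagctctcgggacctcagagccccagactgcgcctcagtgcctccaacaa
Ccl20: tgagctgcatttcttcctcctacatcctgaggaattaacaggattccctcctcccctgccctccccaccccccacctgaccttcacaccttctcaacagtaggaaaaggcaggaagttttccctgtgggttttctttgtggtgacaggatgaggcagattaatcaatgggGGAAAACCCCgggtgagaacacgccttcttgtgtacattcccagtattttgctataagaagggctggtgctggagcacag
Cxcl12: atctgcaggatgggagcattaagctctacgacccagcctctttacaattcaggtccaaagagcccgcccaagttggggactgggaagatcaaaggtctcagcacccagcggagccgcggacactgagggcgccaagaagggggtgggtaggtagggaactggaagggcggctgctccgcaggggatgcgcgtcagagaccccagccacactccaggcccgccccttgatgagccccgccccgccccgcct

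Library totals lay between 22168953 and 29421447 counts, and levels are given as CPM, a depth-scaled unit (counts relative to the library total, with edgeR's TMM normalization). All 10 stellate and fibroblast markers were detected in every group, although the stellate cell marker Des stood at group means of only 1.5 to 2.47 CPM. Of 10 leukocyte markers, Adgre1, Cd3e and Tyrobp had 0 counts in all libraries, and Ptprc had at most 1 count in a library. Cd68 was highest in neratinib PSC4 replicate 1, at 12.3 CPM. The summed leukocyte markers were 14.3 to 17.7 CPM in control, 6.61 to 7.93 with TGF-beta, 26.9 to 53.2 in CM and 35.5 to 68.0 in CM with neratinib, with Cd14 as the main part (means 12.9, 4.67, 37.4 and 49.4 CPM). The 6 endothelial markers summed to at most 5.60 CPM, with Cldn5 at 0. The 10 epithelial markers summed to 74.4 to 89.6 CPM in control, 83.4 to 142 with TGF-beta, 66.6 to 216 in CM and 38.9 to 347 in CM with neratinib. Among them Krt8, an epithelial keratin, ranged from at most 0.0709 CPM in control up to 43.5 and 94.0 in the conditioned media. Sox9 went the other way, with a log2 fold change against control of -0.55 in CM and -0.88 in CM with neratinib. For Muc1 these were 0.43 and -0.07. The part of these markers' cells in the chemokine values was not tested; in bulk RNA, fewer cells of a type and less RNA per cell cannot be told apart. In control and CM the library labelled PSC4 replicate 1 stood apart from its line. By chi-square per degree of freedom, it differed from the other PSC4 controls by 47.4 and 60.7 and from the PSC5 controls by 10.5 and 7.54. In CM it differed from PSC4 replicate 2 by 51.9 and from the PSC5 libraries by 18.9 and 15.4. The neratinib library of that label lay nearer PSC5 replicate 2 (37.2) than PSC4 replicate 2 (103), but not nearer PSC5 replicate 1 (114).

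On a length-scaled basis (CPM per kb of exon), Cxcl12 was the most abundant of the 10 in control medium at 332 CPM per kb, which was 50.0% of the sum of all 10. Ccl2 followed at 163 and Ccl7 at 78.6 CPM per kb. With TGF-beta, Cxcl12 made up 59.8% of a smaller sum and Cx3cl1 was next at 36.9 CPM per kb. In CM, Ccl2 led at 404 CPM per kb (38.1% of the sum), ahead of Cxcl12 at 249. Ccl5 reached 103 and Cxcl5 73.4 CPM per kb in CM. In CM with neratinib the order was Ccl2 (242), Cxcl12 (163), Ccl7 (124), Cxcl5 (75.1), Cxcl1 (63.2) and Ccl5 (29.7 CPM per kb). Cxcl2 and Ccl20 were the lowest in each of the 4 groups, at 1.01 CPM per kb or less.

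**Figure D1:**
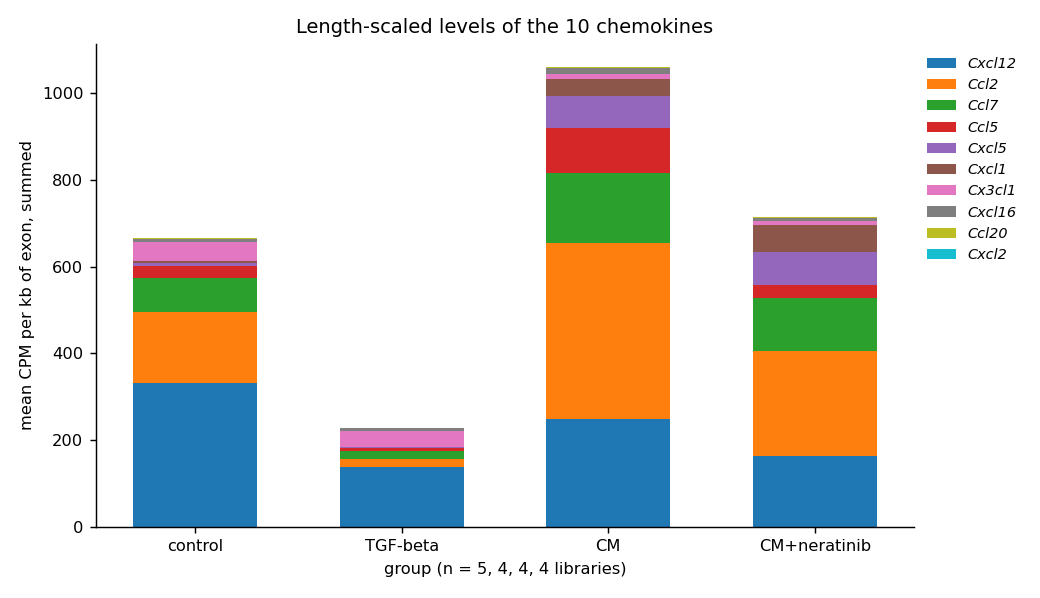
Mean level of each chemokine in CPM per kb of exon (y axis, stacked from 0) in the 4 media (x axis), as means over 5, 4, 4 and 4 libraries with no error drawn. Cxcl12 is the thickest layer in control (332) and TGF-beta (137), and Ccl2 is the thickest in CM (404) and CM with neratinib (242).

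Each group comparison was fitted over all genes with the quasi-likelihood test of edgeR, and a gene is called when its Benjamini-Hochberg adjusted p lies under 0.05. With TGF-beta, 8 of the 10 chemokines fell and 0 rose, beside 20.5% of all tested genes called lower and 19.7% called higher. CM against control gave 7 risen and 1 fallen, beside 7.05% and 7.14% of all genes. CM with neratinib against control gave 5 risen and 1 fallen, beside 22.2% and 20.9%. The fits of these comparisons share the control libraries. Within CM, neratinib gave 0 risen and 2 fallen, beside 10.8% and 9.63%. CM against TGF-beta gave 8 risen and 1 fallen, beside 17.8% and 17.5%, and shares its libraries with the other comparisons. These counts include Cxcl2 and Ccl20 where called. Both reached 10 counts in 3 of 5 control and 0 of 4 TGF-beta libraries and passed the filter through the conditioned media. Calls of these genes are therefore a description only. The median log2 fold change of the 10 was -1.91 with TGF-beta (all genes -0.02), 1.42 in CM (all genes 0), 0.61 in CM with neratinib against control (all genes 0.01), -0.40 for neratinib within CM (all genes 0) and 3.57 for CM against TGF-beta (all genes 0.01). The first and last of these medians keep their values with Cxcl2, which had 3 counts or fewer in each TGF-beta library, set at the near end of its counting interval. Without the 3 libraries labelled PSC4 replicate 1 the called members numbered 8, 8, 6, 1 and 10 in the same order. With line and replicate number as a block, which pairs libraries of the same passage, they numbered 8, 9, 7, 3 and 10. With upper-quartile scaling, 37.5% instead of 49.7% of all called genes were higher in CM against control, and 41.1% instead of 51.4% in CM with neratinib against control, with the same number of called members in each.

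**Figure D2:**
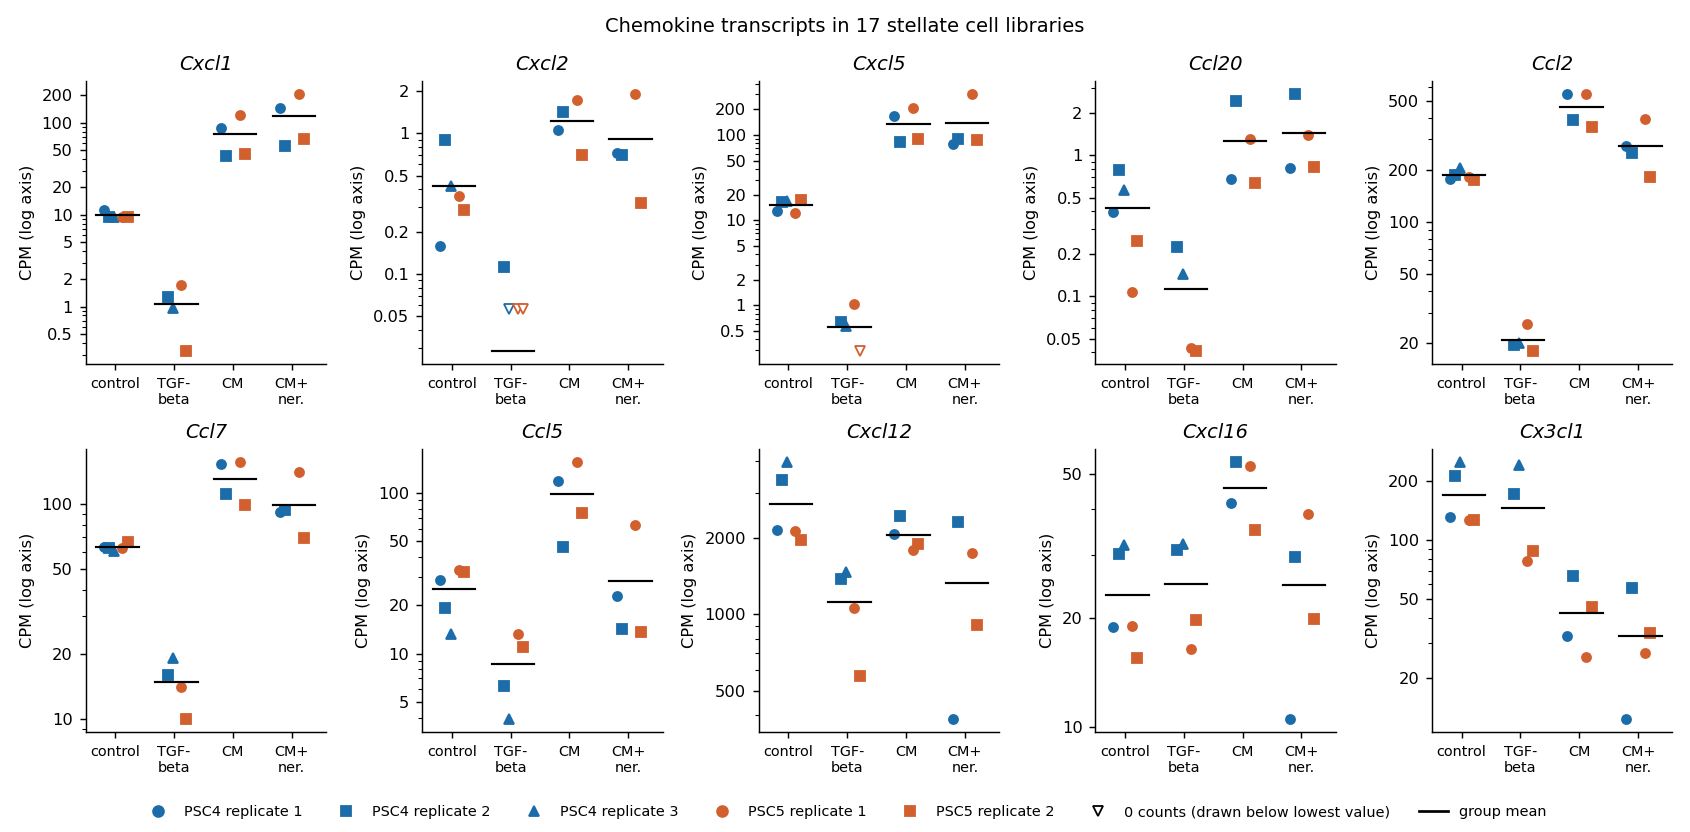
Level of each chemokine in CPM (log y axis) in the 17 libraries by medium (x axis; CM+ner. is CM with neratinib), with colour for the line, shape for the replicate number and a bar at the group mean. The TGF-beta libraries of Cxcl1, Cxcl5, Ccl2 and Ccl7 lie below all controls and the CM libraries above, while Cx3cl1 in CM (25.5 to 65.9 CPM) lies below all controls (127 to 250).

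Cxcl1, Cxcl2 and Cxcl5 attract neutrophils through the receptor Cxcr2, and all 3 fell with TGF-beta. Values are given in the order PSC4 replicates 1, 2 and 3 and PSC5 replicates 1 and 2, where TGF-beta lacks PSC4 replicate 1 and the conditioned media lack PSC4 replicate 3. Cxcl1 stood at 11.2, 9.51, 9.55, 9.38 and 9.50 CPM in control and at 1.28, 0.975, 1.72 and 0.325 CPM with TGF-beta. In CM it reached 87.8, 43.6, 123 and 46.0 CPM, and with neratinib 144, 55.9, 206 and 67.4 CPM. The control values lie close together, the TGF-beta values are all below them, and the 8 conditioned media values are all above. Cxcl1 fell by 3.21 log2 units with TGF-beta (SE 0.52, adjusted p = 0.000193) and rose by 2.90 in CM (SE 0.41, adjusted p = 0.000489), a 7.47-fold difference. In CM with neratinib it was 11.8-fold above control (log2 3.56, SE 0.41, adjusted p = 2.18e-05).

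Cxcl5 repeated this order with a larger span. Control libraries had 12.8, 16.5, 16.8, 12.2 and 17.5 CPM, TGF-beta libraries 0.639, 0.578, 1.03 and 0 CPM. CM libraries had 167, 82.2, 208 and 90.0 CPM, and those with neratinib 79.2, 89.5, 304 and 86.9 CPM. No TGF-beta value came near the lowest control, and no conditioned medium value came down to the highest. Cxcl5 fell by 4.80 with TGF-beta (SE 0.61, adjusted p = 2.59e-05) and rose by 3.11 in CM (SE 0.43, adjusted p = 0.000444), an 8.65-fold difference. Between the TGF-beta and CM groups it differed by 7.91 log2 units (SE 0.64, adjusted p = 4.66e-07), the widest gap of the 10 members.

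Cxcl2 was scarce, with 4 to 25 counts per control library, 0 to 3 with TGF-beta, 21 to 45 in CM and 7 to 44 in CM with neratinib. It passed the filter through the conditioned media, where it was higher, so its adjusted p values are given as a description only. All TGF-beta libraries lay below all controls, at 3 counts in sum against 59, a depth-scaled ratio of 0.0685 with a 95% interval from 0.0137 to 0.210 for counting error alone (adjusted p = 0.00531). CM exceeded control in each line taken alone, but over both lines the ranges met (0.159 to 0.894 against 0.704 to 1.72 CPM). The rise in CM missed the threshold with the cell line as a term (log2 1.53, SE 0.61, adjusted p = 0.106) and passed it with line and replicate number as a block (adjusted p = 0.0476). Against TGF-beta, the CM level was 41.0 times as high, with a counting interval from 13.7 to 201 (adjusted p = 0.000411).

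Ccl2 and Ccl7 attract monocytes through the receptor Ccr2. Ccl2 stood at 178, 186, 206, 182 and 176 CPM in control and at 19.6, 20.2, 26.0 and 17.9 CPM with TGF-beta. CM raised it to 548, 390, 548 and 352 CPM, and the libraries with neratinib had 274, 250, 394 and 183 CPM. TGF-beta, control and CM libraries did not overlap, and 1 of 4 neratinib libraries lay within the control range. Ccl2 fell by 3.15 with TGF-beta (SE 0.21, adjusted p = 6.7e-08), an 8.89-fold difference, rose by 1.31 in CM (SE 0.19, adjusted p = 0.00064), and was 4.46 higher in CM than with TGF-beta (SE 0.23, adjusted p = 6.96e-09). In CM with neratinib it remained above control by 0.56 (SE 0.19, adjusted p = 0.0256), a call that was lost without either PSC5 control library or without PSC4 replicate 1 or PSC5 replicate 1 of the neratinib group (adjusted p between 0.0536 and 0.110).

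Ccl7 moved in the same directions as its neighbour. It had 60.3 to 66.4 CPM in the 5 controls (63.0 ± 2.20, SD), 9.97 to 19.2 CPM with TGF-beta (14.8 ± 3.87, n = 4), 99.2 to 157 CPM in CM (130 ± 29.4, n = 4) and 69.2 to 142 CPM in CM with neratinib (99.2 ± 30.4, n = 4). The ranges of control, TGF-beta and CM stood apart, and the neratinib libraries all exceeded the controls. Ccl7 fell by 2.08 with TGF-beta (SE 0.22, adjusted p = 4.48e-06) and rose by 1.05 in CM (SE 0.20, adjusted p = 0.00396) and by 0.66 in CM with neratinib (SE 0.20, adjusted p = 0.0155). The last of these calls was lost without neratinib PSC5 replicate 1 (adjusted p = 0.0669). Within a library, the CPM of Ccl2, not scaled to length, was 3.49 to 3.58 times that of Ccl7 in CM, 2.65 to 3.41 times in control, 2.65 to 2.99 times with neratinib and 1.05 to 1.85 times with TGF-beta, so these ratios were narrowest in CM and lowest with TGF-beta.

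Ccl5 draws T cells and monocytes. Control libraries had 28.7, 19.3, 13.3, 33.3 and 32.1 CPM, and TGF-beta libraries 6.31, 3.90, 13.3 and 10.9 CPM. CM libraries reached 119, 46.1, 156 and 75.5 CPM, while those with neratinib had 22.7, 14.2, 63.3 and 13.7 CPM. All CM values exceeded the controls, whereas the neratinib values spread across the control range with PSC5 replicate 1 above it. Ccl5 fell by 1.71 with TGF-beta (SE 0.43, adjusted p = 0.00518), with no overlap within either line, and rose by 1.91 in CM (SE 0.40, adjusted p = 0.0064). CM with neratinib and control differed by 0.03 log2 units, less than the SE of 0.40 (adjusted p = 0.952).

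Ccl20, the ligand of Ccr6 on dendritic and T cell subsets, was also scarce. It had 3 to 22 counts per control library, 1 to 6 with TGF-beta, 19 to 69 in CM and 18 to 70 in CM with neratinib. Like Cxcl2, it passed the filter through the conditioned media, where it was higher, so its calls are a description only. The control range overlapped with that of TGF-beta and with that of CM, while the neratinib libraries (0.809 to 2.72 CPM) all exceeded the controls (0.108 to 0.787 CPM). The test called a fall of 1.73 with TGF-beta (SE 0.59, adjusted p = 0.0289), a rise of 1.79 in CM (SE 0.48, adjusted p = 0.0229) and a rise of 1.98 in CM with neratinib (SE 0.48, adjusted p = 0.00431). The first of these was lost without control PSC4 replicate 2 or 3 or without any of 3 TGF-beta libraries (PSC4 replicate 3, PSC5 replicates 1 and 2; adjusted p 0.0506 to 0.0737), and the second without either PSC5 control, CM PSC4 replicate 2 or CM PSC5 replicate 1 (adjusted p 0.0524 to 0.101).

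Cxcl12, which binds Cxcr4 and the scavenging receptor Ackr3 and holds cells in stromal niches, had the highest level per kb of the 10 in control medium. Control libraries had 2146, 3386, 3978, 2124 and 1953 CPM, and TGF-beta libraries 1378, 1467, 1058 and 572 CPM. CM gave 2060, 2426, 1786 and 1886 CPM, and CM with neratinib 385, 2301, 1733 and 902 CPM. TGF-beta values lay below all controls, CM values overlapped with the controls, and the neratinib values ran from below the lowest TGF-beta library up into the control range. Cxcl12 fell by 1.25 with TGF-beta (SE 0.39, adjusted p = 0.0181), a 2.38-fold difference, and this call was lost without TGF-beta PSC5 replicate 2 (adjusted p = 0.0593). CM and control did not differ past the threshold (log2 -0.34, SE 0.38, adjusted p = 0.591). In CM with neratinib Cxcl12 was lower than control by 0.94 (SE 0.39, adjusted p = 0.0624), and with the replicate block by 1.00 (adjusted p = 0.0154). CM exceeded TGF-beta in all 4 libraries by 0.91 (SE 0.40, adjusted p = 0.0934), and with the block by 1.28 (adjusted p = 0.00775).

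Cxcl16 and Cx3cl1 are made as membrane proteins and shed by the proteases Adam10 and Adam17; the first binds Cxcr6 and the second Cx3cr1. Cxcl16 was at 15.5 to 31.9 CPM in control (23.1 ± 7.41, SD, n = 5) and at 16.4 to 32.1 CPM with TGF-beta (24.8 ± 7.87, n = 4). CM libraries had 35.1 to 54.1 CPM (45.9 ± 9.07, n = 4) and neratinib libraries 10.5 to 38.9 CPM (24.7 ± 12.2, n = 4). CM was the only group whose libraries all lay above the control range. The rise in CM was 1.04 log2 units (SE 0.32, adjusted p = 0.0423), a marginal call that was lost without any 1 of 7 libraries (both PSC5 controls, PSC4 control replicates 1 and 2, and CM PSC4 replicates 1 and 2 and PSC5 replicate 1; adjusted p 0.0541 to 0.134). Against TGF-beta the rise of 0.91 (SE 0.34, adjusted p = 0.0458) was lost without any 1 of the 8 libraries (adjusted p 0.0524 to 0.125), each time without a change of direction.

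Cx3cl1 moved the other way. It had 132, 211, 250, 127 and 127 CPM in control and 172, 241, 78.3 and 88.3 CPM with TGF-beta. CM libraries had 32.8, 65.9, 25.5 and 45.9 CPM, and those with neratinib 12.3, 57.1, 26.7 and 33.8 CPM. Control and TGF-beta overlapped, and the 8 conditioned media values lay below both. Cx3cl1 fell by 1.91 in CM (SE 0.38, adjusted p = 0.00521), a 3.77-fold difference, and by 2.27 in CM with neratinib (SE 0.39, adjusted p = 0.000439). With TGF-beta it did not differ past the threshold (log2 -0.23, SE 0.36, adjusted p = 0.645). In control medium the library labelled PSC4 replicate 1 had Cx3cl1, Cxcl12 and Cxcl16 levels (132, 2146 and 19.0 CPM) nearer to the PSC5 libraries than to the other PSC4 libraries.

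**Figure D3:**
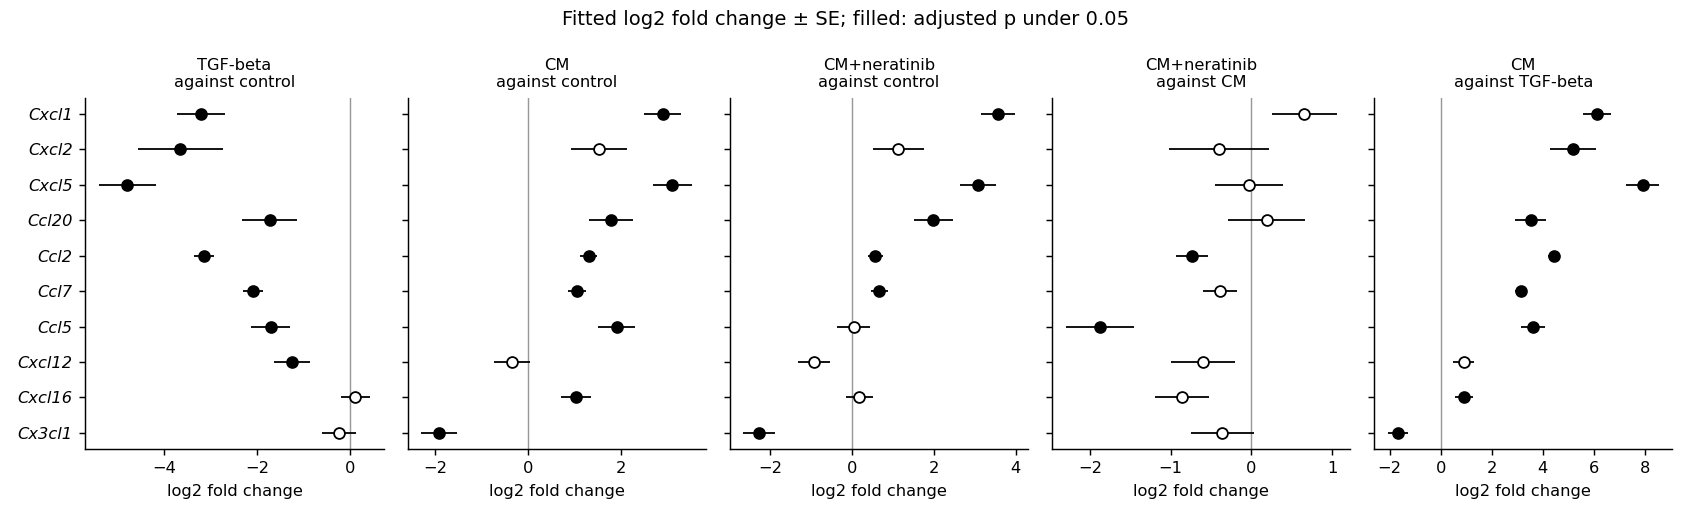
Fitted log2 fold change of each chemokine (x axis, SE as bars; a scale of its own for each of the 5 comparisons), filled where the adjusted p is under 0.05. With TGF-beta 8 filled points lie left of 0, in CM 7 lie right and Cx3cl1 lies left, and for neratinib within CM the filled points are Ccl2 (-0.74) and Ccl5 (-1.88).

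Within CM, neratinib lowered Ccl5 and Ccl2. Ccl5 fell by 1.88 log2 units (SE 0.43, adjusted p = 0.00735), a 3.67-fold difference. Set against the CM library of the same line and number, Ccl5 with neratinib was 19.1%, 30.9%, 40.5% and 18.2% for PSC4 replicates 1 and 2 and PSC5 replicates 1 and 2, lower in 4 of 4. Ccl2 fell by 0.74 (SE 0.20, adjusted p = 0.0181) and was 50.0%, 64.0%, 71.8% and 52.0% of its CM library. The Ccl2 call was lost without CM PSC4 replicate 1, CM PSC5 replicate 1 or neratinib PSC5 replicate 2 (adjusted p 0.0513 to 0.063), and without the 3 libraries labelled PSC4 replicate 1 (adjusted p = 0.0904). With only these 8 libraries in the model neither gene was called (adjusted p = 0.117 for Ccl2 and 0.079 for Ccl5).

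The other members did not pass the threshold for neratinib within CM. Cxcl16 was lower in 4 of 4 pairs, at 25.3% to 74.0% of the CM library (log2 -0.86, SE 0.34, adjusted p = 0.0809), and with the replicate block its fall of 0.96 was called (adjusted p = 0.012). Ccl7 was at 59.9% to 89.9%, lower in 4 of 4 pairs (adjusted p = 0.206), and was called without neratinib PSC5 replicate 1 (adjusted p = 0.0179). Cxcl1 was at 128% to 168% and so higher in 4 of 4 pairs, by 0.66 log2 units (SE 0.40, adjusted p = 0.266). Cxcl5 was at 47.5%, 109%, 146% and 96.6%, with no common direction (adjusted p = 0.971). Within a library, Cxcl1 stood at 0.609 to 0.946 times the CPM of Ccl5 (not scaled to length) in the CM libraries and at 3.26 to 6.36 times in those with neratinib, 2 ranges that do not meet; this ratio was chosen after the values were seen and was not tested.

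**Figure D4:**
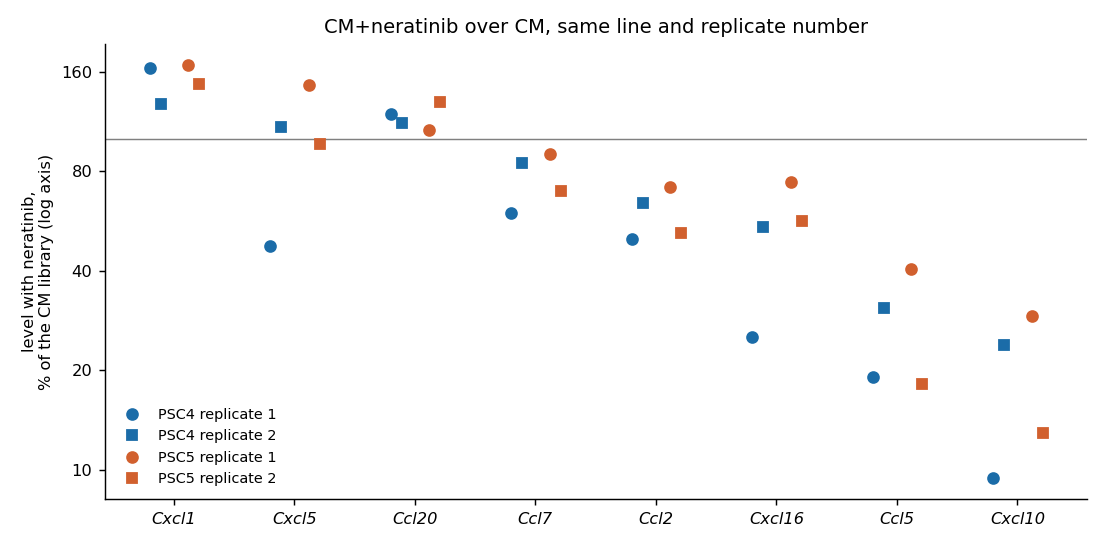
Level in each CM with neratinib library as a percentage of the CM library of the same line and replicate number (log y axis, line at 100%), for 7 members and the related ligand Cxcl10 (x axis). All 4 pairs lie above 100% for Cxcl1 and Ccl20 and below it for Ccl7, Ccl2, Cxcl16, Ccl5 and Cxcl10.

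Whether an effect differed between the lines was tested by interaction terms over all genes. Called genes made up 0% of those tested for the TGF-beta effect, 0% for the CM effect and 0% for the neratinib effect within CM in the edgeR test, and 0 of 10 chemokines were called in each. An unadjusted p under 0.05 was found for 601, 43 and 237 genes (4.32%, 0.309% and 1.7%) and for 0 chemokines. Each share is below the 0.05 that no difference would give, so these tests were cautious. Their 0 calls cannot show that the lines responded alike. For the TGF-beta effect, the standard error of the difference between lines ran from 0.41 log2 units for Ccl7 to 1.37 for Cxcl5 and 2.48 for Cxcl2. It ran from 0.40 for Ccl7 to 1.27 for Cxcl2 for the CM effect. For the neratinib effect it ran from 0.42 for Ccl7 to 1.28 for Cxcl2.

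The labels give the conditioned media 2 codes, T6 for replicate 2 and T8 for replicate 1 of each line, without their meaning. In a model with line and number as a block, called genes for T6 against T8 made up 0% of those tested and 0 of the 10 chemokines were called in edgeR, with adjusted p of 0.604 at the least. At an unadjusted p under 0.05 there were 906 genes (6.51%) and 6 of the 10 chemokines, all 6 with a lower fitted level in T6. These were Ccl5 (log2 -1.02, SE 0.28, unadjusted p = 0.00396), Cxcl1 (-1.08, SE 0.31), Ccl2 (-0.48, SE 0.15), Cxcl2 (-2.13, SE 0.68), Ccl7 (-0.53, SE 0.22) and Cxcl5 (-1.25, SE 0.52). For Cxcl2 the codes overlapped in CM (T6 0.704 to 1.41, T8 1.05 to 1.72 CPM), and in PSC4 the T6 library was the higher. Its fitted value also rests on scarce control counts, 4 and 25 for PSC4 replicates 1 and 2 and 10 and 8 for those of PSC5. In CM, T6 libraries had 43.6 and 46.0 CPM of Cxcl1 and T8 libraries 87.8 and 123 CPM. Krt8 moved the other way, at 39.3 to 43.5 CPM in T6 against 0.408 to 5.62 CPM in T8 in CM, and at 37.8 to 94.0 against 0 to 9.47 CPM with neratinib; the part of these cells or their RNA in the chemokine values was not tested. Cxcl1 was above the highest control (11.2 CPM) with either code. Among the conditioned media libraries of a line the code and the replicate number change together, and the model separates them only through the control and TGF-beta libraries with the same numbers.

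**Figure D5:**
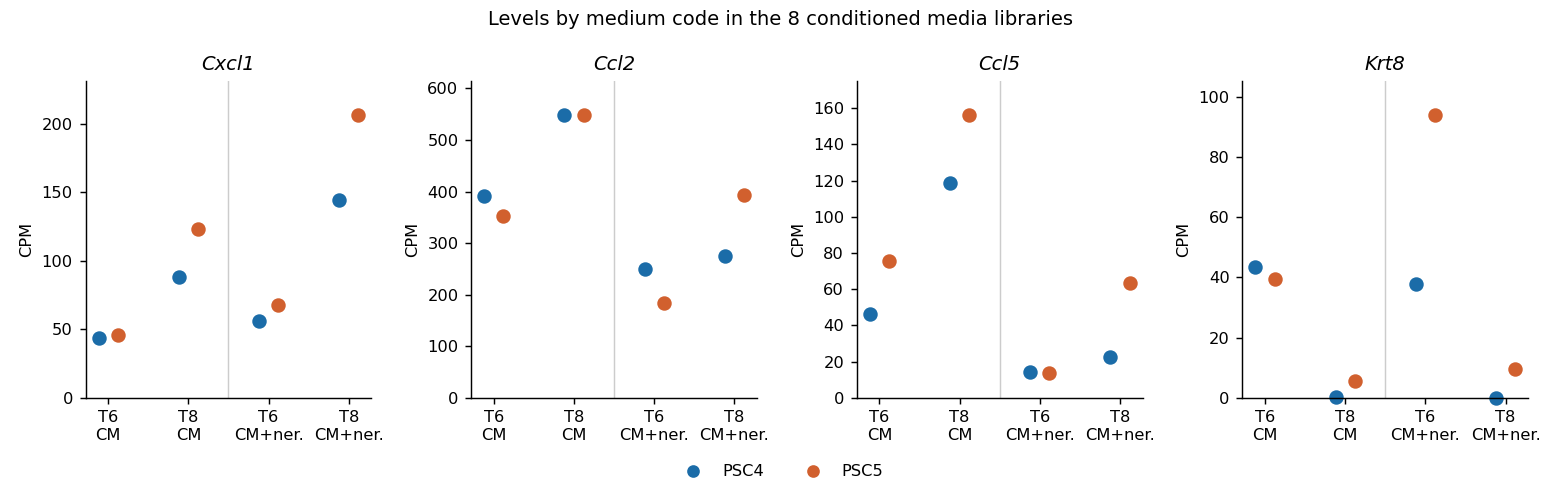
CPM (y axis from 0) of Cxcl1, Ccl2, Ccl5 and the epithelial keratin Krt8 in the 8 conditioned media libraries by medium code and neratinib (x axis), with colour for the line. T8 libraries lie above T6 libraries for the 3 chemokines within each medium, and below them for Krt8.

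Transcripts of 22 genes of the NF-kB pathway were followed, all of them tested. The list holds receptors and subunits as well as inhibitors, so counts risen or fallen give no direction of the pathway. Its activity, and its part in the chemokine values, was not tested. With TGF-beta 8 fell and 0 rose (median log2 fold change -0.20), beside 20.5% and 19.7% of all genes. In CM 10 rose and 0 fell (median 0.36), beside 7.05% and 7.14%, and in CM with neratinib 15 rose and 2 fell against control (median 0.41), beside 22.2% and 20.9%. For CM against TGF-beta 18 were higher and 0 lower (median 0.75), beside 17.8% and 17.5%. Neratinib within CM gave 3 higher and 3 lower (median 0.05), near the 10.8% and 9.63% of all genes; there 0 were called with only these 8 libraries in the model and 2 without CM PSC4 replicate 1. The count was 3 without CM PSC5 replicate 2, neratinib PSC4 replicate 2 or neratinib PSC5 replicate 2, and also without a filter on low counts or without a cell line term. Tlr4, the lipopolysaccharide receptor, had the largest fall with TGF-beta, from 91.1 ± 21.6 (SD, n = 5) to 33.8 ± 9.98 CPM (n = 4; log2 -1.41, SE 0.16, adjusted p = 7.74e-06). Tlr2, a receptor for bacterial lipoproteins, rose in CM from 31.1 ± 3.61 to 91.7 ± 29.9 CPM (log2 1.56, SE 0.32, adjusted p = 0.00622). Zc3h12a, an RNase that degrades inflammatory transcripts, rose in CM with neratinib from 9.58 ± 0.855 to 35.4 ± 12.7 CPM (log2 1.86, SE 0.23, adjusted p = 3.19e-05). Nfkbie, an inhibitor of NF-kB, was 26.7 ± 4.34 CPM in control, 37.5 ± 7.60 in CM and 16.5 ± 9.07 with neratinib, a fall of 1.25 within CM (SE 0.26, adjusted p = 0.00417). Ikbkg, a subunit of the kinase that acts on these inhibitors, rose by 0.92 with neratinib within CM (SE 0.19, adjusted p = 0.00503), from 65.2 ± 3.57 to 125 ± 58.1 CPM.

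Among 28 other chemokine ligands 10 passed the filter. All 10 members passed it, but they were chosen with earlier results of these data known. With TGF-beta 1 rose (all genes 19.7%) and 4 fell (20.5%), and 3 in all were called without control PSC4 replicate 1 or TGF-beta PSC4 replicate 3. In CM 4 rose (7.05%) and 0 fell (7.14%), with 1 called without CM PSC4 replicate 2 or CM PSC5 replicate 1 and 2 without either PSC5 control. In CM with neratinib 2 rose (22.2%) and 5 fell (20.9%), and 4 in all were called without control PSC5 replicate 1 or with only these 2 groups in the model. Cxcl3 and Ppbp are among the risen genes in CM and in CM with neratinib. They had at most 5 and 3 counts in a control library and passed the filter through the conditioned media alone. Their rises, and the fall counted for Cxcl3 with TGF-beta, are therefore a description only. Neratinib within CM gave 0 risen (10.8%) and 3 fallen (9.63%), and 5 were called with the replicate block. Cxcl9 is among these 3 and among the 5 fallen in CM with neratinib against control. It had 19 to 36 counts in a CM library and at most 4 with neratinib, and passed the filter through CM. Both falls of Cxcl9 are therefore a description only. Cxcl10, which attracts T cells through Cxcr3, had 50.9 ± 11.9 CPM in control (SD, n = 5), 38.8 ± 8.85 with TGF-beta, 155 ± 49.7 in CM and 28.6 ± 18.5 with neratinib (n = 4 each). Its fall of 2.48 within CM (SE 0.33, adjusted p = 0.00034) took it to 9.44% to 29.2% of the paired CM library, the largest fall in that comparison among the genes of this list with a mean of at least 1 CPM in CM; the scarcer Cxcl9 was at 0% to 13.3% of the paired library. Ccl9, a macrophage chemokine, fell by 2.23 with TGF-beta (SE 0.53, adjusted p = 0.00361) and by 2.87 in CM with neratinib (SE 0.55, adjusted p = 0.000968), from 8.70 ± 3.91 to 1.96 ± 1.53 and 1.31 ± 0.780 CPM. Ccl8 went against the members with TGF-beta, where it rose by 2.03 (SE 0.55, adjusted p = 0.00844) from 0.812 ± 0.628 to 3.40 ± 2.80 CPM, and it rose by 2.21 in CM (SE 0.56, adjusted p = 0.0175).

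Of 18 signalling chemokine receptors, 1 passed the filter. Cxcr6, the receptor of Cxcl16, had 19 to 49 counts in each TGF-beta library (1.30 ± 0.531 CPM, SD, n = 4), at most 1 count in a control library and 0 in CM. Set against a floor of 3 counts per library, it was at least 10.9-fold higher with TGF-beta than in control and at least 11.3-fold lower in CM than with TGF-beta. It passed the filter through the TGF-beta group alone, so these values are given as a description, without a test. Of 5 atypical receptors, a class without G protein signalling, Ackr3 and Ccrl2 passed. Ackr3 had 17.8 ± 15.9 CPM in control, 10.0 ± 5.94 with TGF-beta, 41.8 ± 41.1 in CM and 55.8 ± 49.2 with neratinib, a rise over control in the last of 1.97 (SE 0.70, adjusted p = 0.0332). Ccrl2 had 0.569 ± 0.145, 0.361 ± 0.169, 1.39 ± 0.478 and 0.173 ± 0.177 CPM in the same order and fell by 3.00 with neratinib within CM (SE 0.53, adjusted p = 0.00207). Of 6 proteases that process chemokines 4 passed. Adam10 fell by 0.35 with TGF-beta (SE 0.06, adjusted p = 0.00042). Adam17 rose by 0.42 in CM (SE 0.09, adjusted p = 0.00961) and by 0.39 in CM with neratinib (SE 0.09, adjusted p = 0.00403). It was not called for neratinib within CM (-0.03, SE 0.10, adjusted p = 0.866). The gelatinase Mmp2 rose by 1.37 with TGF-beta (SE 0.22, adjusted p = 0.000161) and by 0.92 in CM (SE 0.22, adjusted p = 0.013).

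Pearson's r of log2 CPM over the 17 libraries described which members ran alike. These libraries fall into 4 media, so r mostly follows the group means and is given without a test. Ccl2 and Ccl7 had r = 0.986, Cxcl1 and Cxcl5 had 0.979, and Cxcl5 and Ccl7 had 0.975. Cx3cl1 had negative r with Cxcl1 (-0.751) and Cxcl5 (-0.619), and Cxcl12 had r between 0.114 and 0.583 with each of the others. Among 9772 genes of at least 10 CPM, the genes most like a member were Traf3ip2 and Cxcl5 for Cxcl1 (0.98 and 0.979), Ikbke and Pnrc1 for Cxcl2 (0.959 and 0.954), and Prrx1 and Thbd for Cxcl5 (0.981 each). For Ccl2 they were Ccl7 and Nfkbia (0.986 and 0.985), for Ccl7 Fgf7 and Ccl2 (0.989 and 0.986), for Ccl20 Hp and Tifa (0.948 and 0.947), and for Ccl5 Brip1 and Setdb1 (0.962 and 0.946). For Cxcl12 they were Mturn and Rgs4 (0.969 and 0.965), for Cx3cl1 Magee1 and Nrp1 (0.966 and 0.962), and for Cxcl16 Sox5 and Fzd1 (0.917 and 0.907), the lowest values of the 10.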

How the data were processed

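RNA from 17 libraries was collected in TRIzol, purified with an RNeasy Plus Mini column kit and made into mRNA libraries, per the labels. The authors deposited expected counts, 1 value per Ensembl gene ID and library, estimated with Salmon 1.4.0 per the submitters' processing notes; these also name DESeq 2 and the builds GRCm38 and mm10, without their roles. Salmon divides reads that fit several transcripts by estimation. Of the deposited expected counts above 0, 74.8% were not whole, and all were rounded. Library totals of 22168953 to 29421447 put 3 counts at about 0.1 CPM; intervals and floors cover counting error only. No libraries were identical or alike within sampling noise.

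Groups came from the labels. edgeR 4.0.16 (R 4.3.3) fitted the counts with TMM factors, filterByExpr by group (10 counts, 15 in total) and group and line as terms over all 17 libraries, with Benjamini-Hochberg adjustment over 13923 genes at 0.05 (quasi-likelihood test). DESeq2 1.42.0, other scalings, no filter, fewer libraries, other line terms and leaving out each library were alternatives. The steps were tested on simulated data. Exon lengths were unions over GENCODE M21 transcripts; r used a prior count of 2.

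Replicate numbers mark a shared passage in the labels, and all 22 pairs of same line and number had deviations from group means correlated above 0.1 (median r 0.299, against -0.076 for another number of the same line), so the numbers pair the libraries. The main fits had the line as a term but not this pairing, so their SEs and adjusted p leave it out. The fits with the replicate block use it. Named genes were the 10 members; per list and comparison the called gene with the largest rise and fall (mean of at least 1 CPM); the atypical receptors; and the 2 genes most like each member. Members and lists were chosen with earlier results of these data known.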

Additional observations from a re-analysis of the deposited data

Results flagged for a closer look

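In 40 sets of a member in 1 group, 3 libraries lay far from the rest of their group; chance flags about 1 set in 20. Cxcl1 in control PSC4 replicate 1 stood at 11.2 CPM, with the next library at 9.55 CPM. Cxcl2 in TGF-beta PSC4 replicate 2 stood at 0.113 CPM, which is 3 counts, with the other 3 libraries at 0. Cxcl5 in CM with neratinib PSC5 replicate 1 stood at 304 CPM, with the next library at 89.5 CPM; the same library was also the highest of its group for Cxcl1 (206 CPM), Ccl2 (394 CPM), Ccl7 (142 CPM) and Ccl5 (63.3 CPM).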

How the results depend on the processing

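The direction of every called member held under all alternatives run. The number of called members for neratinib within CM went from 2 to 0 with only the 8 libraries of those groups, to 1 without the 3 libraries labelled PSC4 replicate 1, and to between 1 and 4 when 1 library was left out; all genes called there went from 2850 to 602 with only those groups, to 4563 with the replicate block, and to between 1748 and 3685 with 1 library left out. For CM against control, all genes called went from 1976 to 3240 with the replicate block, to 2986 with PSC4 replicate 1 counted with PSC5, and to between 801 and 1793 with 1 library left out, lowest without CM PSC5 replicate 1. The T6 against T8 test called 2 members without the replicate block and 1 with only the 8 conditioned media libraries. The block changed the calls given beside the results and no other call of a member. The cause of these shifts was not tested, beyond fewer samples in the fits that leave some out.

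Signs turned only for folds that were not called. Ccl20 for neratinib within CM (0.19) ran from -0.11 to 0.50 with 1 library left out, below 0 without CM PSC4 replicate 1 (-0.11), neratinib PSC4 replicate 2 (-0.035) or neratinib PSC5 replicate 1 (-0.058). Ccl5 in CM with neratinib against control (0.03) went to -0.23 with the replicate block, -0.016 with PSC4 replicate 1 counted with PSC5, -0.033 with upper-quartile scaling, and ran from -0.45 to 0.30 with 1 library left out. Cxcl16 in CM with neratinib against control ran from -0.20 (without neratinib PSC5 replicate 1) to 0.50, and with TGF-beta went to -0.012 under the block. Cxcl5 for neratinib within CM (-0.03) went to 0.034 without a line term, 0.037 with PSC4 replicate 1 counted with PSC5 and 0.32 without those libraries, and ran from -0.67 to 0.19 with 1 library left out. Depth limits Cxcl2 and Ccl20, which had at most 45 and 70 counts in a library.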

Other observations

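2 near relatives of the neutrophil chemokines, Cxcl3 and Ppbp, lie in the same chromosome 5 cluster and were scarce. Cxcl3 had 0.117 ± 0.0605 CPM in control (SD, n = 5), 0.0107 ± 0.0215 with TGF-beta, 0.793 ± 0.463 in CM and 0.554 ± 0.450 in CM with neratinib (n = 4 each). Ppbp had 0.0587 ± 0.0418, 0.0188 ± 0.0376, 0.535 ± 0.343 and 0.916 ± 0.752 CPM in the same order. The ligand Ccl25 had between 8.26 and 20.0 CPM in each of the 17 libraries. Cxcl9, a Cxcr3 ligand like Cxcl10, had 0.975 ± 0.335 CPM in CM and 0.0530 ± 0.0821 CPM with neratinib. These genes were chosen after their values were seen.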
